A study of Homo sapiens with 14 samples.

Results

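The 10 genes described here make, regulate and break down the polyamines, and they were taken by gene symbol from the 2 count tables of the study. ODC1, AMD1, SRM and SMS encode the synthesis enzymes, OAZ1, OAZ2 and AZIN1 the antizyme system, and SAT1, PAOX and SMOX the enzymes of acetylation and oxidation. Each gene was listed once in both tables, as 10 of 19726 gene identifiers found in either, and all 10 passed the filter on low counts in both. RNA-seq was done in CHP-134 cells, an established human neuroblastoma line with amplified MYCN. In the first experiment, cells transduced with a lentiviral Tet-On vector were induced with 1 µg/ml doxycycline for 3 days to express either EGFP or OmoMYC, with 3 libraries each. OmoMYC, a dominant-negative form of the MYC leucine zipper region, keeps MYC and N-MYC from binding MAX and their target DNA, and EGFP, a fluorescent protein, served as the control. The EGFP and OmoMYC lines were transduced and drug-selected separately and both carried the inducible vector, so that the transgene and any difference between the lines cannot be told apart. In the second experiment, parental CHP-134 cells without a tagged protein were treated for 18 h with DMSO or with 500 nM dTAG47, 4 libraries each. dTAG47 is a small molecule that bridges FKBP12-tagged proteins to the cereblon ubiquitin ligase, and the parental cells show what it does when no such protein is present.

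Putrescine, spermidine and spermine are small positively charged molecules that bind nucleic acids and are needed for growth. ODC1 (ornithine decarboxylase) makes putrescine from ornithine, and AMD1 (adenosylmethionine decarboxylase) makes the aminopropyl donor that SRM (spermidine synthase) and SMS (spermine synthase) then add to putrescine and to spermidine. The antizymes OAZ1 and OAZ2 bind ODC1 and send it to the proteasome, and their mRNA is decoded through a ribosomal frameshift that polyamines promote. AZIN1 (antizyme inhibitor) resembles ODC1, has no decarboxylase activity and draws the antizymes away from it. SAT1 acetylates spermidine and spermine, PAOX oxidizes the acetylated forms, and SMOX oxidizes spermine directly. ODC1 is a classic target gene of MYC proteins, and difluoromethylornithine, which inhibits its enzyme, is used in neuroblastoma.

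MYC proteins bind DNA with MAX at E-boxes, of which CACGTG is the best known form, and the windows of the polyamine genes that hold this motif are shown for that reason. RefSeq promoter windows of GRCh38.p14, from 250 bases before to 50 bases after an annotated start, were searched for CACGTG, which reads the same on both strands. Of 35116 windows, 2548 (7.26%) held the motif and 233 (0.664%) held it 2 or more times, and by gene 2396 of 27305 (8.77%) had it in a window. Of the polyamine genes, 7 had a window, and 2 of them, ODC1 and SRM, had the motif. AMD1, SMS, SAT1, OAZ1 and OAZ2 had a window without these letters, and AZIN1, PAOX and SMOX had no entry. The stretches below were placed on hg19 by exact match and are written 5′ to 3′ on the strand of the gene, with CACGTG in capitals. The ODC1 stretch (chr2:10588089-10588207, minus strand) lies in intron 1, and its pair of motifs begins 286 and 320 bases downstream of the canonical start. The SRM stretch (chr1:11120229-11120314, minus strand) lies upstream of the gene, with the motif beginning 199 bases before the canonical start. A match of these letters is a description and not a measured binding site.
ODC1 intron 1: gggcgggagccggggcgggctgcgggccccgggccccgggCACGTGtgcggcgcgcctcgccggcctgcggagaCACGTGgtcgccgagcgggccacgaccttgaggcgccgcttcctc
SRM upstream: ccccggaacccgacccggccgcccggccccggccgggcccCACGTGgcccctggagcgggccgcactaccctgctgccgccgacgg

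The libraries held 28060817 to 38358128 counts in the OmoMYC experiment and 40861430 to 53451641 in the dTAG47 experiment. CPM gives the count of a gene per 1000000 counts of its library after scaling. The MYC gene, from which OmoMYC is derived, went from 0.610 ± 0.0684 to 522 ± 7.85 CPM (SD, n = 3 each) as OmoMYC was induced, with reads of the transgene included. MYCN was lower with OmoMYC, at 2240 ± 66.0 CPM against 2713 ± 266 CPM (log2 fold change -0.28, adjusted p = 0.0103). Among adrenergic neuroblastoma markers, HAND2, GATA3 and ISL1 were at or above 1 CPM in every library while DBH and TH were not. Of 5 mesenchymal markers 3 passed 1 CPM in every library, summing to 46.8 to 53.4 CPM with EGFP and 45.9 to 55.4 CPM with OmoMYC (15.3 to 17.8 CPM in parental cells). Of 4 epithelial and 5 immune markers 0 did, and the immune markers summed to 1.10 to 1.50 CPM with EGFP and 0.648 to 0.888 CPM with OmoMYC, and the epithelial markers to at most 1.61 CPM in these groups, 0.707 to 0.864 CPM with DMSO and 0.717 to 6.46 CPM with dTAG47. The part of these differences in the results was not tested. EGFP replicate 1 stood apart from replicates 2 and 3 (chi-square over degrees of freedom 21.0 and 42.1, against 7.94 between the other two), so some values are also given without it. In parental cells, DMSO replicates 1 and 2 stood apart from replicates 3 and 4 (8.70 to 11.3 across, 2.64 and 3.15 within). Among dTAG47 libraries replicate 2 stood apart most (14.7 and 22.4 from replicates 3 and 4), and replicate 1 was nearer to replicate 3 (5.68) than to replicate 2 (8.17), with no batch named for any of them.

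Of the 10 polyamine genes, 4 were lower and 2 higher in the cells that expressed OmoMYC than in those that expressed EGFP. ODC1, AMD1 and SMS, which make putrescine, the aminopropyl donor and spermine, fell together with the antizyme inhibitor AZIN1, whereas the antizyme OAZ2 and the oxidase PAOX rose. SRM, OAZ1, SAT1 and SMOX were not called. Called means an adjusted p-value (FDR) below 0.05 in edgeR's quasi-likelihood test with Benjamini-Hochberg adjustment over all 13803 genes tested. Among all these genes 25.7% were called lower, 27.3% higher and 53% in either direction, so that 6 of 10 is close to the share over all genes. The 3 OmoMYC libraries lay entirely below or above the 3 EGFP libraries for the same 6 members, 4 lower and 2 higher, against 30.3% of all genes lower, 32% higher and 62.3% in all. The median log2 fold change was -0.18 over the 10 members and 0.01 over all genes, and the median size regardless of direction was 0.32 and 0.31. In bulk RNA, a change in the number of cells of a kind and a change in RNA per cell cannot be told apart.

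**Figure D1:**
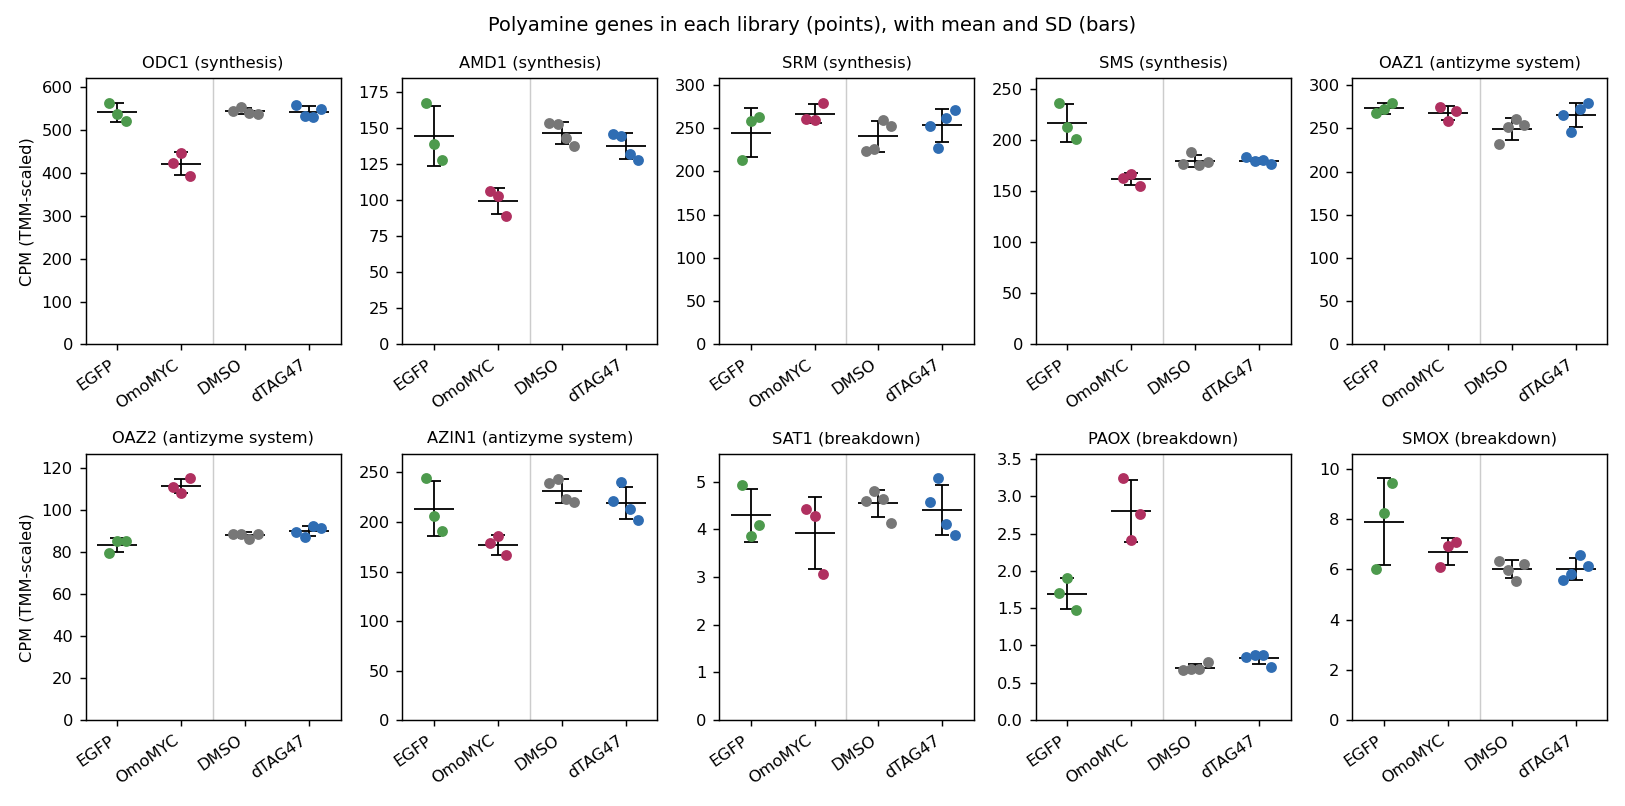
CPM (linear axes from 0, own scale for each gene) of the 10 polyamine genes in every library of the EGFP, OmoMYC, DMSO and dTAG47 groups. Points are libraries, long bars are means and whiskers are SD (n = 3, 3, 4 and 4), and the vertical line parts the 2 experiments, which were scaled separately. With OmoMYC, ODC1, AMD1, SMS and AZIN1 lay below and OAZ2 and PAOX above all EGFP libraries, whereas DMSO and dTAG47 libraries overlapped for every gene.

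Of the synthesis enzymes, ODC1 (ENSG00000115758.8, chromosome 2 of hg19 from 10580094 to 10588453) was at 564, 537 and 522 CPM in the EGFP libraries and at 423, 446 and 393 CPM in the OmoMYC libraries. The groups were apart, with a gap wider than the range within either. ODC1 thus fell by 22.2%, from 541 ± 21.3 to 421 ± 26.8 CPM (SD, n = 3 each; log2 fold change -0.36, standard error 0.07, 95% interval -0.51 to -0.21, adjusted p = 0.00128). AMD1 (ENSG00000123505.10, chromosome 6 from 111195973 to 111220082) was at 167, 138 and 128 CPM with EGFP and at 106, 103 and 88.7 CPM with OmoMYC. EGFP replicate 1 was the high library here, and the groups did not overlap with or without it. AMD1 fell most of the 10 genes, from 144 ± 20.6 to 99.2 ± 9.26 CPM (log2 fold change -0.54, 95% interval -0.78 to -0.31, adjusted p = 0.00183). Without EGFP replicate 1 its log2 fold change was -0.44.

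SMS and SRM carry out the same kind of reaction, one after the other, and were measured on different sides of the threshold. SMS (ENSG00000102172.11, chromosome X from 21958827 to 22012955) was at 236, 213 and 201 CPM with EGFP and at 163, 167 and 155 CPM with OmoMYC. All 3 OmoMYC libraries were below the EGFP libraries, and SMS fell from 217 ± 18.2 to 162 ± 5.89 CPM (log2 fold change -0.42, 95% interval -0.59 to -0.26, adjusted p = 0.00100). SRM (ENSG00000116649.5, chromosome 1 from 11114641 to 11120077) was at 213, 259 and 263 CPM with EGFP and at 261, 259.8 and 279.5 CPM with OmoMYC. EGFP replicate 1 was the low library for SRM, and the other two lay within or beside the OmoMYC range. The log2 fold change of SRM was 0.12 (95% interval -0.07 to 0.31, adjusted p = 0.244), and 0.02 without that library. Of the 2 genes with CACGTG in a window, ODC1 was called lower and SRM was not called. Among members with a window and no motif, AMD1 and SMS were called lower, OAZ2 was called higher, and OAZ1 and SAT1 were not called. Pseudogenes of AMD1 (4), SRM (3), SMS (1) and OAZ1 (1) are annotated and none is listed in the tables, and how reads that match both were counted is not given in the sources used here.

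In the antizyme system, OAZ1 was not called and OAZ2 rose. OAZ1 (ENSG00000104904.8, chromosome 19 from 2269508 to 2273489), the main antizyme, was at 268, 273 and 279 CPM with EGFP and at 275, 259 and 269.7 CPM with OmoMYC. The groups overlapped, with a log2 fold change of -0.03 (95% interval -0.16 to 0.11, adjusted p = 0.721; -0.06 without EGFP replicate 1). OAZ2 (ENSG00000180304.10, chromosome 15 from 64979772 to 64995480) was at 79.4, 85.3 and 85.3 CPM with EGFP and at 111, 108 and 115 CPM with OmoMYC. The groups were well apart, and OAZ2 rose from 83.3 ± 3.42 to 111 ± 3.43 CPM (log2 fold change 0.42, standard error 0.07, 95% interval 0.27 to 0.57, adjusted p = 0.000598). OAZ1 shares 19.6% of its canonical exon bases with JSRP1 on the other strand, which had 49 to 88 counts per library against 7610 to 9985 for OAZ1.

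AZIN1 (ENSG00000155096.9, chromosome 8 from 103838339 to 103906092) was at 244, 206 and 191 CPM with EGFP and at 178, 186 and 167 CPM with OmoMYC. The highest OmoMYC library was just below the lowest EGFP library. AZIN1 fell from 214 ± 27.5 to 177 ± 9.94 CPM (log2 fold change -0.27, 95% interval -0.47 to -0.07, adjusted p = 0.0303), and this was the weakest of the 6 calls. It was lost without EGFP replicate 2 (log2 fold change -0.32, adjusted p = 0.0502), OmoMYC replicate 1 (-0.28, adjusted p = 0.0792) or OmoMYC replicate 3 (-0.26, adjusted p = 0.0835). Without EGFP replicate 1, its highest library, AZIN1 had a smaller log2 fold change of -0.18 and was called (adjusted p = 0.0199).

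The 3 breakdown enzymes were counted far less often, at 43 to 274 counts per library. PAOX (ENSG00000148832.10, chromosome 10 from 135192765 to 135205198) was at 1.70, 1.90 and 1.48 CPM with EGFP and at 3.24, 2.41 and 2.76 CPM with OmoMYC. The groups did not overlap, and PAOX rose from 1.69 ± 0.209 to 2.81 ± 0.415 CPM, the largest change of the 10 genes (log2 fold change 0.72, standard error 0.18, 95% interval 0.32 to 1.12, adjusted p = 0.00667). A readthrough gene that is annotated over 75% of its canonical exon bases was not listed for this experiment, and in parental cells it had 0 to 1 counts per library. How reads that match both genes were counted is not given in the sources used here. These counts therefore do not show whether PAOX lost reads, and its level per length and its ratio to SMOX carry this uncertainty. SAT1 (ENSG00000130066.12, chromosome X from 23801290 to 23804327), at 93 to 165 counts, was at 4.92, 3.87 and 4.10 CPM with EGFP and at 4.43, 4.28 and 3.06 CPM with OmoMYC. The groups overlapped, and at this depth the 95% interval of the log2 fold change ran from -0.50 to 0.24 (adjusted p = 0.536). The log2 fold change of SAT1 was -0.13, and -0.03 without EGFP replicate 1. SMOX (ENSG00000088826.13, chromosome 20 from 4101627 to 4168394) was at 6.03, 8.24 and 9.44 CPM with EGFP and at 6.10, 6.93 and 7.10 CPM with OmoMYC. EGFP replicate 1 was again the library that differed, here the lowest of all 6. With it the log2 fold change of SMOX was -0.23 (95% interval -0.58 to 0.12, adjusted p = 0.241), and without it SMOX was called lower, at -0.41 (adjusted p = 0.00810). Without EGFP replicate 3, its highest library, the log2 fold change was -0.11 (adjusted p = 0.539), and with each of the other libraries left out it lay between -0.30 and -0.17 and was not called.

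**Figure D2:**
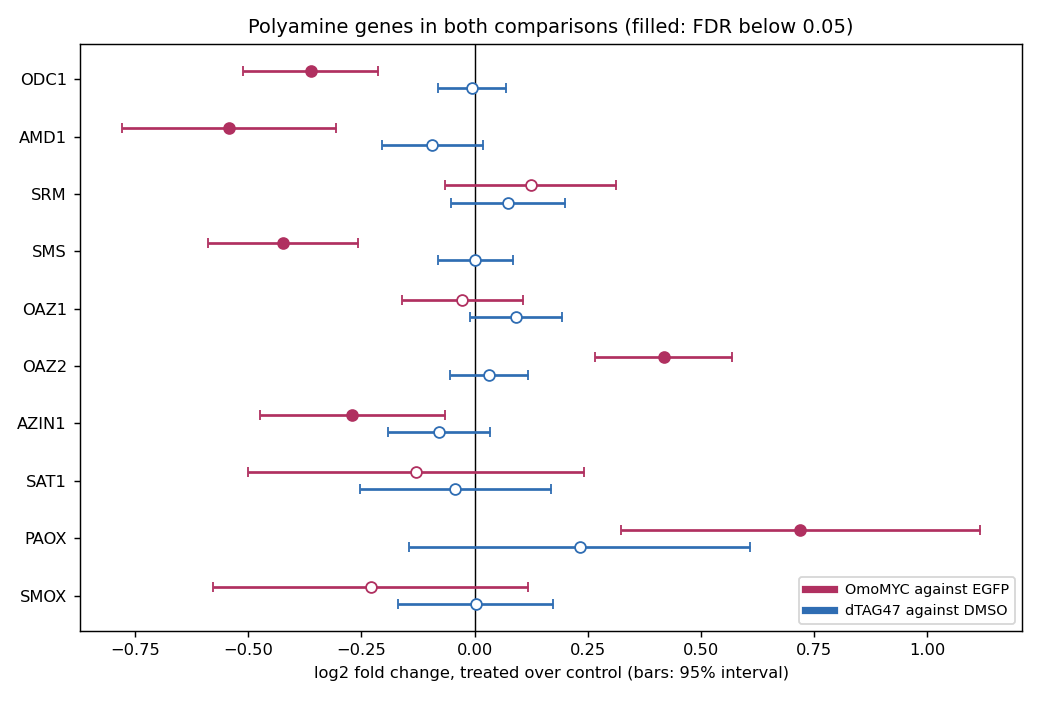
Log2 fold changes (horizontal axis) of the 10 polyamine genes with 95% intervals, for OmoMYC against EGFP and for dTAG47 against DMSO. Filled points have an FDR below 0.05; they are 6 for OmoMYC, from -0.54 (AMD1) to 0.72 (PAOX), and 0 for dTAG47, where all 10 intervals include 0.

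Ratios of counts within a library do not depend on how libraries are scaled, and 6 were taken for pairs that act on each other or on the same molecules. ODC1 over OAZ1, the enzyme over its main antizyme, was 2.11, 1.97 and 1.87 with EGFP and 1.54, 1.72 and 1.46 with OmoMYC. The groups did not overlap, and the mean log2 ratio was lower by 0.34 (difference -0.34). SMS over SRM was 1.11, 0.822 and 0.762 with EGFP and 0.623, 0.642 and 0.555 with OmoMYC, a log2 difference of -0.55, or -0.39 without EGFP replicate 1. OAZ2 over OAZ1 was 0.297, 0.313 and 0.305 with EGFP and 0.403, 0.417 and 0.426 with OmoMYC, a log2 difference of 0.45. The antizyme ratio had the smallest spread within the groups, at 0.305 ± 0.00818 and 0.416 ± 0.0116 (SD, n = 3 each). SMOX over PAOX was 3.54, 4.34 and 6.37 with EGFP and 1.88, 2.87 and 2.57 with OmoMYC, a log2 difference of -0.94, or -1.13 without EGFP replicate 1. These 4 ratios did not overlap between the groups and had an exact 2-sided permutation p of 0.1, the smallest that 3 libraries against 3 can give (0.24 with Benjamini-Hochberg adjustment over 12 ratios). The share over other pairs of genes was not computed, and 62.3% of single genes did not overlap. Each of the 6 pairs holds a member that was called on its own, so the ratios are not separate evidence. AZIN1 over OAZ1 (means 0.783 and 0.662, exact p = 0.2) and ODC1 over SAT1 (127 and 109, exact p = 0.3) overlapped. Without EGFP replicate 1 the log2 difference of AZIN1 over OAZ1 was -0.12 in place of -0.24, and that of ODC1 over SAT1 was -0.29 in place of -0.22.

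**Figure D3:**
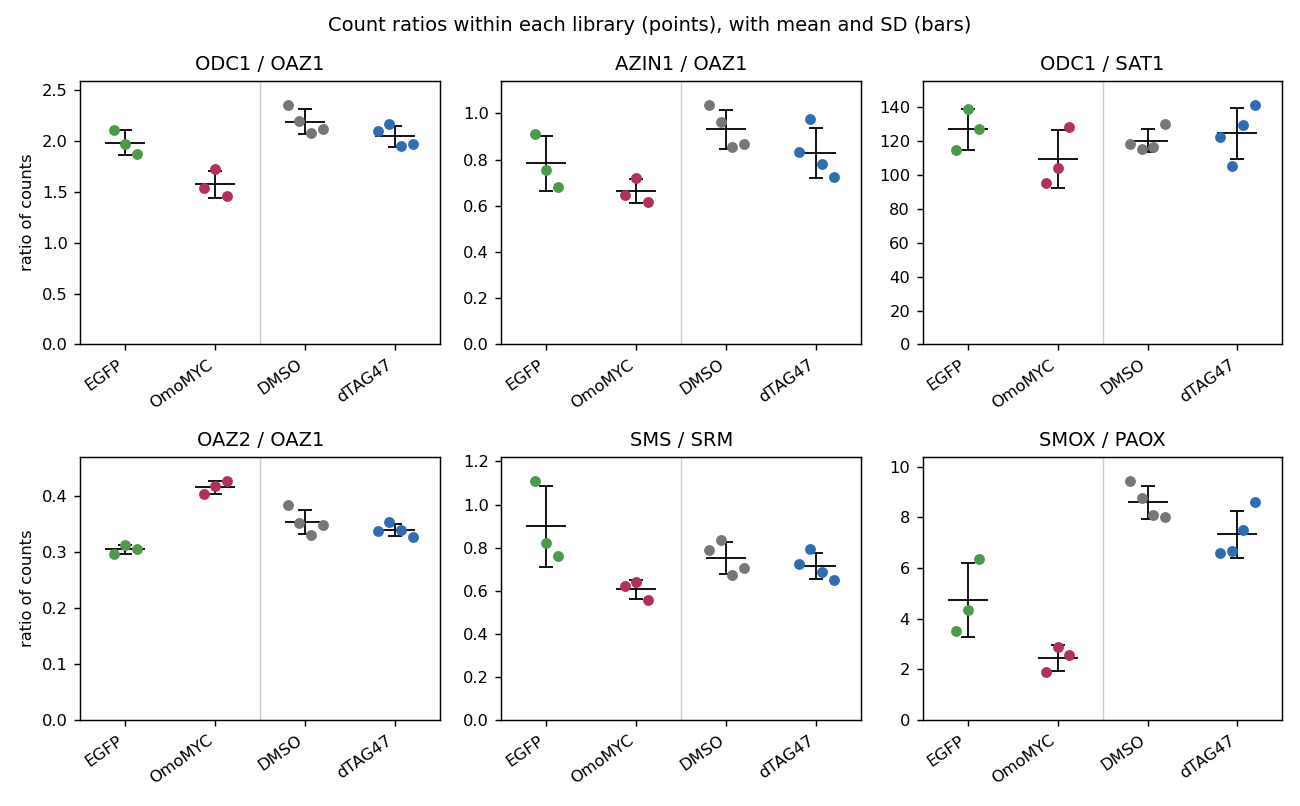
Ratios of raw counts within each library (vertical axes, linear from 0) for 6 pairs of polyamine genes, with libraries as points, means as long bars and SD as whiskers (n = 3, 3, 4 and 4). Between EGFP and OmoMYC the points of ODC1 over OAZ1, OAZ2 over OAZ1, SMS over SRM and SMOX over PAOX do not overlap, and all 6 ratios overlap between DMSO and dTAG47.

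Levels of different genes were compared per length, as CPM per kilobase of the canonical transcript. The count ratios above carry no correction for length and serve only to compare groups. With EGFP, OAZ1 (238 ± 5.17), ODC1 (219 ± 8.61), SRM (194 ± 22.1) and SMS (127 ± 10.7) were highest in this order, each apart from the next. AZIN1 (50.9) followed, then OAZ2 (43.1) and AMD1 (42.2), whose libraries overlapped. SAT1 (4.10) and SMOX (3.65) overlapped far below them, and PAOX was at 0.926. With OmoMYC, SRM (212 ± 8.76) stood above ODC1 (170 ± 10.8), and OAZ2 (57.6 ± 1.77) above AZIN1 (42.2 ± 2.37) and AMD1 (29.0 ± 2.71), with each of these apart from the next. OAZ1 stayed highest, at 233, and SMS followed ODC1 at 94.8. SAT1 (3.74) and SMOX (3.10) overlapped with OmoMYC too, and PAOX (1.53) was last. In the parental cells ODC1 (219.8 with DMSO, 219 with dTAG47), OAZ1 (217 and 231) and SRM (191 and 201) led the order, and neighbours among these 3 overlapped in both groups. SMS (105 and 106), AZIN1 (55.1 and 52.2), OAZ2 (45.5 and 46.5) and AMD1 (42.8 and 40.1) came next, the last 2 overlapping with DMSO and not with dTAG47. SAT1 (4.33 and 4.20), SMOX (2.78 and 2.79) and PAOX (0.384 and 0.452) were apart from one another in both groups. The 7 genes of synthesis and the antizyme system lay above the 3 breakdown genes in all 4 groups, also when all annotated exons were joined as the length. The order within the upper 7 and within the lower 3 rested on that choice. With all exons joined, ODC1 came first with EGFP, at 164, and OAZ1 the fourth, at 79.5. SMOX then ranked above SAT1 in all 4 groups, apart with EGFP (2.68 and 1.73) and OmoMYC (2.28 and 1.58) and overlapping in parental cells, and SAT1 overlapped PAOX (1.25) with OmoMYC.

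In the main fit, with group as its only term, dTAG47 in parental cells was followed by no call among the polyamine genes. With a term for replicates added, 1 member, AMD1, was called, as given below. The share of all genes called with such a term is not given here. Of 14470 genes tested in the main fit, 0.0415% were called lower, 0.117% higher and 0.159% in either direction. With group only, 0 of the 10 members were called by edgeR, DESeq2 or limma-voom. At an unadjusted p below 0.05 there were also 0 members, the smallest being 0.0751 for OAZ1. DMSO and dTAG47 libraries overlapped for all 10, against 1.47% of all genes that did not overlap and were lower, 1.87% that were higher and 3.34% in all. The median log2 fold change of the members was 0.00, and their median size regardless of direction was 0.06, as it was over all genes.

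ODC1 was at 545, 554, 540.5 and 538 CPM with DMSO and at 558, 533, 529.8 and 549 CPM with dTAG47. These 8 libraries span a narrow range, and the log2 fold change was -0.01 with a 95% interval of -0.08 to 0.07 (adjusted p = 0.966). SMS was likewise narrow, at 175 to 188 CPM with DMSO and 176 to 183 CPM with dTAG47, with an interval of -0.08 to 0.08. AMD1 was at 153, 153, 143 and 137 CPM with DMSO and at 146, 144, 131 and 128 CPM with dTAG47. In both groups replicates 1 and 2 were above replicates 3 and 4, and within each of these pairs both dTAG47 libraries were below both DMSO libraries. Its log2 fold change was -0.09 (95% interval -0.20 to 0.02, adjusted p = 0.680). With a factor in the model that sets replicates 1 and 2 apart from replicates 3 and 4, AMD1 had the same log2 fold change of -0.09 and was called (adjusted p = 0.0392). The 0.159% of all genes called above belongs to the main fit and cannot be set beside this call. No label gives the split behind this factor, which was seen in the same counts. OAZ1 was at 231, 252, 261 and 254 CPM with DMSO and at 266, 246, 272 and 279 CPM with dTAG47, with a log2 fold change of 0.09 (95% interval -0.01 to 0.19, adjusted p = 0.674; 0.0731 with that factor).

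The other 6 genes had adjusted p-values from 0.705 to 0.993. PAOX, at 28 to 47 counts per library, was at 0.670, 0.680, 0.683 and 0.776 CPM with DMSO and at 0.847, 0.872, 0.876 and 0.715 CPM with dTAG47. A single dTAG47 library, replicate 4, lay within the DMSO range, and the log2 fold change of 0.23 had a wide 95% interval of -0.14 to 0.61. OAZ2 lay between 86.2 and 88.7 CPM with DMSO and between 87.0 and 92.2 CPM with dTAG47 (log2 fold change 0.03, interval -0.05 to 0.12). SRM (0.07, interval -0.05 to 0.20), AZIN1 (-0.08, -0.19 to 0.03), SAT1 (-0.04, -0.25 to 0.17) and SMOX (0.00, -0.17 to 0.17) had small log2 fold changes of either sign. In the count ratios the exact 2-sided permutation p-values ran from 0.0857 (SMOX over PAOX) to 0.686 (ODC1 over SAT1), where 4 libraries against 4 can reach 0.0286. ODC1 over OAZ1 was 2.19 ± 0.123 with DMSO and 2.04 ± 0.105 with dTAG47 (SD, n = 4 each, exact p = 0.143), and OAZ2 over OAZ1 was 0.354 ± 0.0218 and 0.339 ± 0.0110 (exact p = 0.314).

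Around the 10 enzymes and regulators lie genes that supply the precursors, salvage the methylthioadenosine that SRM and SMS release, move polyamines across membranes, and use spermidine to make hypusine on the translation factor EIF5A. Of 30 such genes, 29 were listed and 25 tested in the OmoMYC experiment, and 9 were called lower and 4 higher, against 25.7% and 27.3% of all genes. Of 6 precursor genes, 4 fell and 0 rose, while DESeq2 called 3, without ARG1. MAT2B, the regulatory subunit of the synthase of S-adenosylmethionine, fell from 103 ± 11.7 to 64.7 ± 1.12 CPM (log2 fold change -0.67, adjusted p = 0.000156). The catalytic subunit MAT2A (-0.40) and the arginases ARG2 (-0.52) and ARG1 (-0.83, under 1 CPM) were also lower, and these 3 are named after their values were seen.

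Of 5 salvage genes, 3 fell and 1 rose, against 25.7% of all genes called lower and 27.3% called higher. MTAP, the phosphorylase that cleaves methylthioadenosine, was at 48.2, 41.0 and 40.1 CPM with EGFP and at 25.5, 26.6 and 25.4 CPM with OmoMYC, a log2 fold change of -0.74 (adjusted p = 9.26e-05). ADI1, a dioxygenase late in the same route, went the other way. It rose from 24.0 ± 0.645 to 49.1 ± 1.86 CPM (log2 fold change 1.04, adjusted p = 2.67e-06), the largest rise of the 25 genes. APIP (-0.50) and ENOPH1 (-0.38), which act between them, were lower and are named after their values were seen.

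The paralogs of the members included 2 that rose, where 27.3% of all genes were called higher. AZIN2, a second antizyme inhibitor that the tables list under its older symbol ADC, rose from 8.10 ± 0.745 to 14.3 ± 0.216 CPM (log2 fold change 0.82, adjusted p = 9.75e-05), while AZIN1 fell. SAT2, a relative of SAT1, rose from 21.2 ± 0.100 to 29.7 ± 0.519 CPM (0.48, adjusted p = 0.000423). The third antizyme gene OAZ3, near 1.11 CPM in both groups, and SATL1 were not called.

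Among 6 tested transport genes, 2 fell and 1 rose, close to the 53% of all genes called in either direction. SLC7A2, a carrier of arginine and other cationic amino acids, fell from 83.3 ± 8.62 to 67.6 ± 2.75 CPM (-0.30, adjusted p = 0.0131). ATP13A2, a lysosomal polyamine exporter, rose from 78.1 ± 11.6 to 115 ± 8.34 CPM (0.55, adjusted p = 0.00157). SLC7A1 (-0.24) was the other gene that fell, named after its values were seen. Of the 4 hypusine genes EIF5A, EIF5A2, DHPS and DOHH, 0 were called by edgeR, DESeq2 or limma-voom and 1 had an unadjusted p below 0.05, with log2 fold changes from -0.27 to 0.18. With dTAG47, 0 of 25 tested genes were called by these 3 tools and 1 had an unadjusted p below 0.05, with log2 fold changes from -0.12 to 0.11. With the factor for replicates 1 and 2 against 3 and 4, 3 were called: ATP13A3 (-0.12, adjusted p = 0.0293), SLC3A2 (0.10, adjusted p = 0.0376) and DHPS (0.10, adjusted p = 0.0448), named after their values were seen. The share of all genes called with this factor is not given here, so these calls have no background beside them.

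**Figure D4:**
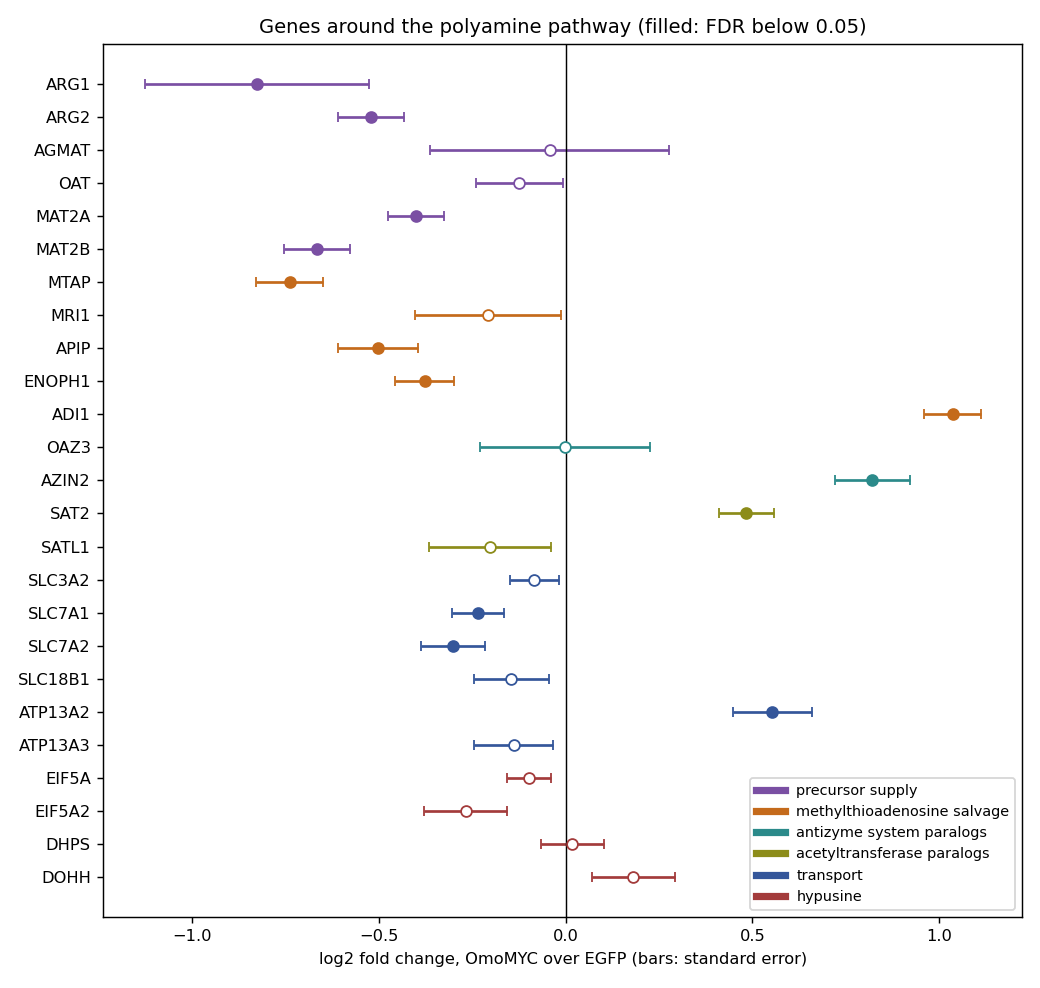
Log2 fold changes with OmoMYC against EGFP (horizontal axis, bars are standard errors) of the 25 tested genes around the polyamine pathway, coloured by list. Filled points have an FDR below 0.05; they are 9 to the left of 0 and 4 to the right (ADI1, AZIN2, SAT2 and ATP13A2).

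To see which genes varied most like ODC1, log2 CPM was centred on the gene's mean within each experiment and compared over all 14 libraries among 11836 genes at or above 1 CPM in every group. COPS3, a COP9 signalosome subunit, was nearest, with a root mean square difference of 0.0228, followed by FAF1 (0.0275) and the mitochondrial dehydrogenase HADH (0.0276), against a median of 0.175 over all genes compared. The 3 genes had log2 fold changes of -0.32, -0.38 and -0.38 with OmoMYC and of 0.02, -0.02 and 0.03 with dTAG47. Differences between groups were left in when these genes were picked, so that their likeness to ODC1 in fold change follows from the choice. SMS, ranked 62 with a difference of 0.0410, was the member most like ODC1. AZIN1 (0.0892) and AMD1 (0.105) were next, OAZ1 and SAT1 stood at 0.139 and 0.152, and SMOX, SRM and OAZ2 were farther from ODC1 than the median gene, at 0.181, 0.207 and 0.266. PAOX was under 1 CPM in parental cells and was not compared. All genes share the same libraries and scaling, so these values are a description.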

How the data were processed

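The authors processed reads with Cutadapt, STAR (hg19) and featureCounts, and deposited raw counts per gene without normalization, for 17810 genes in the OmoMYC table and 19143 in the parental table. The annotation, the strand setting and the treatment of multimapping reads are not given in the sources used here. Each table was analysed on its own in R 4.3.3 with edgeR 4.0.16: filterByExpr, TMM scaling, and the robust quasi-likelihood test with Benjamini-Hochberg adjustment at an FDR of 0.05. The study used DESeq2, run here (1.42.0) as an alternative beside limma-voom (limma 3.58.1), RLE factors, library totals, other count filters (none, or at least 10 counts in every library), a block for replicate number, a factor for replicates 1 and 2 against 3 and 4, and leaving out each library. All 14 count columns were mapped to samples by title. Coordinates are from GENCODE lifted to GRCh37 (hg19), in which 16960 and 18616 identifiers were found.

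The named genes are the 10 members, MYC and MYCN, the called gene with the largest rise and fall in each list around the pathway (mean of at least 1 CPM in a group), and the 3 genes most like ODC1. Members and lists were chosen with earlier results of these data known. The study describes the libraries as biological replicates. The fits were also run on simulated counts, drawn without the differences between replicates described above, and the outcome is not given here. A result on a marker gene is not reported here.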

Additional observations from a re-analysis of the deposited data

Results flagged for a closer look

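In groups of 4 libraries, the highest or lowest library was tested for its gap to the nearest other library over the range of the group (Dixon's test). Of 82 groups of 4 values tested, 5 passed, and 1 in 20, or 4.1, would do so by chance. Among the members, OAZ2 was at 86.2 CPM in DMSO replicate 3 and at 88.5 to 88.7 CPM in the other DMSO libraries, and PAOX was at 0.776 CPM in DMSO replicate 4 and at 0.670 to 0.683 CPM in the others. ENOPH1 was at 97.6 CPM in DMSO replicate 1 (others 90.5 to 91.0) and at 90.7 CPM in dTAG47 replicate 3 (others 93.4 to 93.7). AZIN2 was at 8.05 CPM in DMSO replicate 3 (others 7.22 to 7.35). The groups of 3 libraries were not tested.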

How the results depend on the processing

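With OmoMYC, 6 members were called with DESeq2, limma-voom, RLE factors, library totals, either count filter and the replicate block, and 5 to 7 with single libraries left out (AZIN1 lost, or SMOX gained without EGFP replicate 1). Of the genes around the pathway, 13 were called, 12 to 14 under these settings and 10 to 17 with single libraries left out. No log2 fold change of a called member reversed. Without single libraries ODC1 ranged from -0.44 to -0.35, AMD1 from -0.66 to -0.44, SMS from -0.51 to -0.37, OAZ2 from 0.36 to 0.42 and PAOX from 0.60 to 0.79. Scaling moved the median of all genes by at most 0.02 (log2).

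With dTAG47, 0 members and 0 genes around the pathway were called, also with each library left out. The replicate block called 1 member, AMD1 (-0.09, adjusted p = 0.0496), and 1 other gene, ATP13A3. The factor for replicates 1 and 2 against 3 and 4 called 1 member, AMD1, and 3 other genes, DHPS, SLC3A2 and ATP13A3, each named after its values were seen. The share of all genes called with the block or the factor is not given here. No label gives the split behind the factor, which was seen in the same counts, so its calls are a description. The range of adjusted p for AMD1 over all settings was 0.0392 to 1.00. The numbers were not taken to pair the samples. Deviations of libraries with the same number correlated by -0.07 to 0.29 in the OmoMYC experiment and by 0.01 to 0.16 in the parental one. For different numbers the range was -0.29 to 0.25 in the OmoMYC experiment. In parental cells, DMSO and dTAG47 libraries of different numbers correlated by 0.08 to 0.25 within replicates 1 and 2 or 3 and 4. Across these sets of replicates the correlations were -0.23 to -0.02. The main fit has no term for this difference shared by both groups. With a library left out, 0 of the 6 count ratios changed direction between EGFP and OmoMYC. Joining all annotated exons, a choice made after seeing the data, left 2 to 3 of 10 members at the same rank of level per length. Depth limits PAOX, SAT1 and SMOX, with 28 to 330 counts per library.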
